A study of Rattus norvegicus with 24 samples.

Results

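Expression of 10 microglia genes was followed in hippocampal and neocortical tissue from 24 rat fetuses, here called pups, collected on embryonic day 18. The genes were chosen by name, as Tmem119, Cx3cr1, Aif1, Csf1r, P2ry12, C1qa, C1qb, C1qc, Trem2 and Cd68, and make up 10 of the 17420 genes in the table of normalised read counts. The study exposed pregnant Sprague-Dawley rats to one of several prenatal insults used to model schizophrenia and sequenced RNA from the dissected tissue of their pups. There were 6 pups in each of 4 groups, with 3 pups from each of 2 litters, and the leading digit of each sample's number was taken as its litter. The MAM group received methylazoxymethanol acetate, which methylates DNA and blocks division of neural precursors, at 22 mg/kg i.p. The Poly I:C group received a synthetic double-stranded RNA that triggers an antiviral immune response, at 7.5 mg/kg i.p. Both agents, and the saline of the control group, were given to the dam on gestational day 17, and tissue was taken 18 hours later. Dams of the Low Protein group ate a diet of 6.1% protein from mid-pregnancy until collection, and control rats an isocaloric diet of 20.3% protein. The diet of the MAM and Poly I:C dams is not given in the sources used here. No injection is described for the Low Protein dams, so that group may differ from saline by injection as well as by diet. Each pup was sequenced once, sexes were combined, and the dam was the treated unit, so the p-values below measure the spread between pups and not between dams.

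Microglia are the resident macrophages of the brain. They arise from the yolk sac, enter the brain before most neurons are born, depend on signalling through the CSF1 receptor, and in the embryo clear dying cells and prune early contacts. A second macrophage population sits in the meninges and around vessels, and it shares many transcripts with microglia, among them those of complement C1q and of Csf1r, whereas Tmem119 and P2ry12 are more particular to microglia in the tissue itself. In whole tissue, fewer cells of a type and less RNA per cell cannot be told apart.

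The upstream sequences of C1qa, C1qb and Trem2 are shown because these 3 members passed the unadjusted threshold between MAM and saline pups. Each is the 250 bases before the start given in the RefSeq table of promoter sequences, read 5′ to 3′ on the gene's own strand from the GRCr8 assembly. For Trem2 that start lies inside the annotated gene, so that the last 18 bases of its stretch belong to the gene. They lie on the minus strand at chr5:154419934-154420183, chr5:154407828-154408077 and chr9:20151780-20152029. Capitals mark GAGGAA or its reverse complement TTCCTC, a core of the site bound by PU.1, the transcription factor that specifies macrophages.
C1qa: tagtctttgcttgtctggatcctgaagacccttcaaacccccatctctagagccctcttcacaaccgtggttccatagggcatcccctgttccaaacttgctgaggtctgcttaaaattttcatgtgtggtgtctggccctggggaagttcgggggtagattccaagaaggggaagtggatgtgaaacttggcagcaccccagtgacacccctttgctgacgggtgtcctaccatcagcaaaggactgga
C1qb: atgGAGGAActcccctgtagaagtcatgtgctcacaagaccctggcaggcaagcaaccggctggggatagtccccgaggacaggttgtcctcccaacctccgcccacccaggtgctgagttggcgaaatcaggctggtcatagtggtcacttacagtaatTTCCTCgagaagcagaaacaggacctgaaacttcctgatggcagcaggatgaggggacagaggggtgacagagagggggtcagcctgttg
Trem2: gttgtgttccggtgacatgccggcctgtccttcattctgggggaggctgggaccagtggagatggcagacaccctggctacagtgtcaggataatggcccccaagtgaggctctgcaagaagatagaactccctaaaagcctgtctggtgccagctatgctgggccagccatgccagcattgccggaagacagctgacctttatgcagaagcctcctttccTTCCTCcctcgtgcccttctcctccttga
The C1qa stretch held no copy, the C1qb stretch held 2, whose first bases lie at -247 and -90 from the start given in the table, and the Trem2 stretch held 1 at -29. An upstream sequence was given for 6 of the 10 members (Cx3cr1, Csf1r, C1qa, C1qb, Trem2 and Cd68), and 4 of these 6 held the motif on either strand, against 23.3% of all 33469 upstream sequences of that length. The stretches of Cx3cr1 and Csf1r lay inside the annotated gene over 250 and 227 of their bases. A match describes letters only and is no evidence of binding. C1qa, C1qb and C1qc, which encode the A, B and C chains of one protein, are neighbours on chromosome 5 and lie on the same strand.

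The values are normalised to gene length and to the library, and each library sums to 70350.1. Sequencing depth, estimated from the steps between low values, ranged from 25.04 to 70.6 M reads (megareads) per pup. At the chosen step, only 49.2% to 54.3% of the low genes of a pup fell within the tolerance of a whole read. Spans were taken from GRCr8 whereas reads were aligned to rn6, so depths, read counts and counting errors are approximate. Group medians were 43.9 M reads for saline, 44.4 for Low Protein, 51.2 for MAM and 30.9 for Poly I:C pups, so Poly I:C values rest on the fewest reads. The tissue was rich in neuronal transcripts, with Tubb3, a neuronal tubulin, between 219 and 281 in every pup, and it held blood, with Hba1, an alpha globin, at 1428 or more in every pup. Low Protein pups 1-1, 1-3 and 2-2 and Poly I:C pup 1-3 stood apart from their groups in the microglia genes, as described with those groups, and each fit was repeated without each pup in turn. In the comparisons, 13786 genes that lay above the lowest value of the table in at least 12 of the 24 pups were tested together.

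All 10 microglia genes were detected in all 24 pups, and all 10 entered the test. Per genomic length, C1qc and C1qa had the highest levels, with medians over the 24 pups of 4.33 and 4.24. C1qb followed at 2.94, Aif1 at 2.05 and Cd68 at 1.51, then Csf1r at 0.859 and P2ry12 at 0.675. Cx3cr1 at 0.237, Trem2 at 0.201 and Tmem119 at 0.175 were lowest. The ranges of C1qc and C1qa overlapped, and so did those of Cx3cr1, Trem2 and Tmem119. Long introns lower a value here, so the estimated number of reads ran in another order. P2ry12 had a median of 1266 reads and Csf1r 1171, whereas Trem2 had 69.6 and Tmem119 53.2. For Tmem119 the counting error alone came to a median of 13.7% of the value and to 29.0% in the pup with the fewest reads, and for P2ry12 to 2.81%. Only Aif1, C1qa, C1qb, C1qc and Cd68 exceeded a mean of 1 in every group, the level at which the study included a gene in its own tests.

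**Figure D1:**
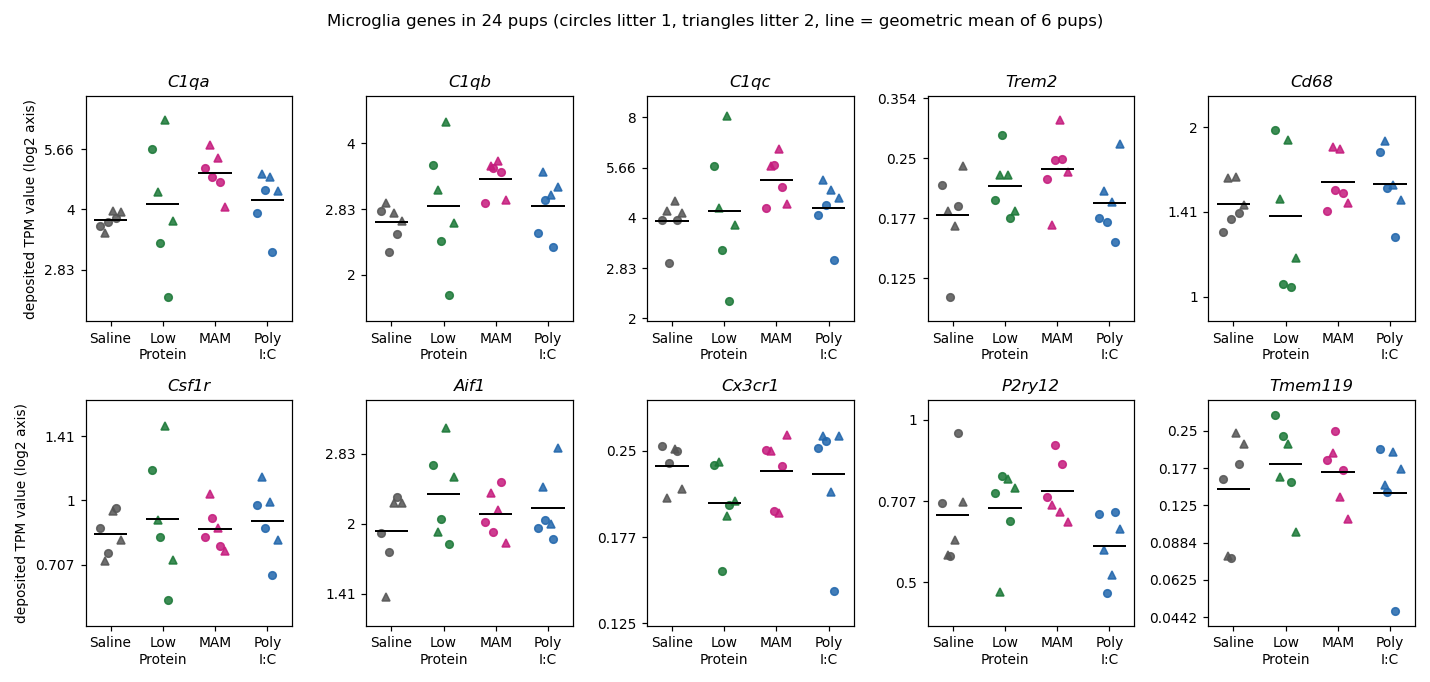
Normalised read count (deposited TPM value, log2 axis) of the 10 microglia genes in each of 24 pups, by maternal treatment. Circles are pups of litter 1, triangles pups of litter 2, and the line is the geometric mean of 6 pups. All 6 MAM pups lie above all 6 saline pups for C1qa, and Low Protein pups are widely scattered for the C1q genes, Cd68 and Csf1r.

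Of the 3 chains of C1q, the protein that starts the classical complement pathway, C1qa and C1qb passed the unadjusted threshold with higher values in MAM than in saline pups, C1qc did not, and none passed after adjustment. C1qa, the A chain, ran from 3.49 through a median of 3.77 to 3.97 in saline pups, and from 4.05 through 4.95 to 5.79 in MAM pups. The groups did not overlap. The log2 fold change was 0.39 (SE 0.169), or 1.31-fold, with limma p = 0.0296 and an adjusted p = 0.521, and the exact two-sided permutation test gave p = 0.00216, the smallest that 6 pups against 6 can give. No overlap with MAM above saline was seen for 0.21% of the 13786 genes tested.

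C1qb, the B chain, ran from 2.26 through 2.71 to 2.93 in saline pups and from 2.91 through 3.47 to 3.63 in MAM pups. Of the 6 MAM pups, 5 lay above every saline pup. The log2 fold change was 0.33 (SE 0.149), with limma p = 0.0362, an adjusted p = 0.523 and an exact permutation p = 0.00433. C1qc, the C chain, ran from 2.94 through 4.04 to 4.48 in saline pups and from 4.29 through 5.34 to 6.41 in MAM pups. Of the 6 MAM pups, 4 lay above every saline pup. Its log2 fold change was the largest of the members at 0.41 (SE 0.210), but limma p = 0.0609 (adjusted p = 0.529) missed the threshold, while the exact permutation test gave p = 0.00649. The ratio of one chain to another differed between MAM and saline pups by 0.06 (C1qa to C1qb), -0.02 (C1qa to C1qc) and -0.08 (C1qb to C1qc) on the log2 scale, a description for which no test is given.

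Trem2, a lipid-sensing receptor of phagocytes, ran from 0.112 through 0.187 to 0.239 in saline pups and from 0.170 through 0.239 to 0.312 in MAM pups. The groups overlapped over much of their range. The log2 fold change was 0.38 (SE 0.170), with limma p = 0.0339, an adjusted p = 0.521 and an exact permutation p = 0.0693. Tyrobp, the signalling adaptor of Trem2, was higher as well at the unadjusted threshold, with a log2 fold change of 0.29 (SE 0.123) and a limma adjusted p = 0.521.

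The remaining 6 members did not pass between MAM and saline pups. Csf1r, the receptor on which microglia depend for survival, ran from 0.719 through 0.832 to 0.959 in saline pups and from 0.762 through 0.840 to 1.03 in MAM pups. Its log2 fold change was 0.04 (SE 0.166), and the groups overlapped almost fully. Cx3cr1, the receptor for the neuronal chemokine fractalkine, had a log2 fold change of -0.03 (SE 0.137), Cd68, a lysosomal protein of phagocytes, of 0.13 (SE 0.140), and Aif1, the calcium-binding protein known as Iba1, of 0.12 (SE 0.142). P2ry12, the ADP receptor that guides microglial processes, had a log2 fold change of 0.15 (SE 0.134). For Tmem119, a membrane protein of mature microglia, it was 0.23, smaller than its SE of 0.355.

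In all, 3 of the 10 members passed the unadjusted threshold of 0.05 between MAM and saline pups, all 3 higher in MAM. Over all genes tested 9.45% passed in either direction and 2.15% passed with higher values in MAM. Members were not independent of each other, since C1qa and C1qb, for example, correlated at 0.91 across pups once group means were subtracted. None passed an adjusted p of 0.05, which 0.0145% of genes did. The median log2 fold change was 0.19 over the 10 members and -0.07 over all genes tested, and 9 of 10 members but 29.9% of all genes were above 0. Scaling by the median of ratios brought the median of all genes to -0.01 and turned the split of genes passing from 297 higher and 1006 lower to 697 higher and 378 lower, and scaling by the upper quartile turned it to 597 higher and 479 lower. Under the median of ratios 4 members passed, with C1qc at a log2 fold change of 0.48. For 5 members, Aif1, C1qa, C1qb, C1qc and Trem2, both MAM litters had a higher mean log2 value than both saline litters, and for 0 both were lower. In Low Protein pups 2 members had both litters higher and 1 both lower, and in Poly I:C pups 1 and 1. The share of all genes with such an order was not counted, and the C1q chains moved together, so these counts are descriptions only. By permutation, 2 litters against 2 cannot reach a p of 0.05. The count of 3 fell to 0 without MAM pup 2-2, without either MAM litter or without saline litter 1, and to 1 without MAM pup 1-2, 1-3 or 2-1 or saline pup 1-2. Of all genes 1303 passed with all pups. In the fits with a count of 0, 840, 794, 659 and 488 passed, in the order given. In those with a count of 1, 1327, 891, 1697 and 1049 passed. In the fits in which C1qa lost its call, its log2 fold change lay between 0.35 and 0.41.

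**Figure D2:**
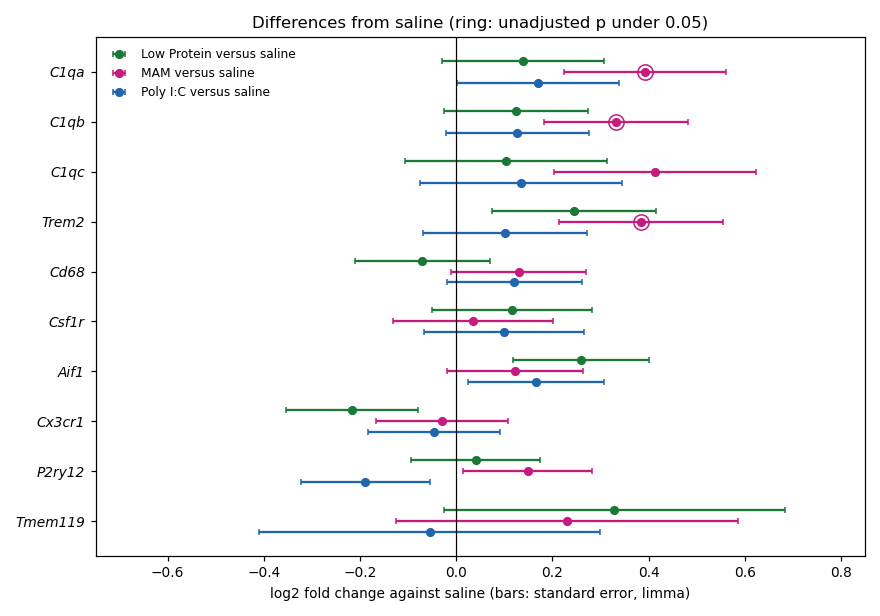
Log2 fold change of each microglia gene against saline in the pups of each treatment group (6 pups against 6 each), with bars for the standard error from limma. Rings mark an unadjusted p under 0.05. Rings stand on C1qa, C1qb and Trem2 in MAM, at 0.39, 0.33 and 0.38.

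Poly I:C, the immune challenge, left all 10 members short of the unadjusted threshold (9.08% of all genes passed), and the adjusted threshold was passed by 0.0% of genes. C1qa ran from 3.13 through 4.46 to 4.89 in Poly I:C pups. Its log2 fold change against saline was 0.17 (SE 0.169) with an exact permutation p = 0.126. P2ry12 ran from 0.561 through 0.650 to 0.946 in saline pups and from 0.478 through 0.602 to 0.674 in Poly I:C pups. The means of both Poly I:C litters were under those of both saline litters, the log2 fold change was -0.19 (SE 0.134), and the exact permutation p = 0.223. Cd68 had a log2 fold change of 0.12 (SE 0.140), Aif1 of 0.17 (SE 0.142) and Csf1r of 0.10 (SE 0.166). The median over the members was 0.11, against 0.00 over all genes.

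One Poly I:C pup, 1-3, had the lowest value of its group for 9 of the 10 members. Its Tmem119 was 0.0470 and its Cx3cr1 0.142, below every other pup of the series for both genes. Its estimated depth was 29.2 M reads, and that of its 2 littermates 29.0 and 29.5 M reads. The mean log2 value of the 10 members relative to saline was -0.40 in this pup. In the littermates it was 0.04 and 0.12, in the same order. Ttr, the choroid plexus transcript, ranged from 32.02 to 240 in the Poly I:C group. The choroid plexus list of this pup stood at -1.93 on the log2 scale relative to the saline mean. On that list MAM pups 1-3 and 2-3 stood at -1.63 and -1.21, with means over the members of 0.24 and 0.03. Poly I:C pup 1-3 was also lowest of its group in the border macrophage (-0.58), endothelial and mural (-0.53) and red blood cell (-0.39) lists. So it was in a list of other microglia genes (-0.24), but not in the meninges list (-0.43). The part of depth or of any list in the low values was not tested. Without this pup, 0 of 10 members again passed between Poly I:C and saline pups.

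Low Protein pups also showed no member past the unadjusted threshold (7.11% of all genes passed), and 0.0% of genes passed after adjustment. The median log2 fold change of the members was 0.12, against -0.02 over all genes. Aif1 ran from 1.39 through 2.06 to 2.29 in saline pups and from 1.81 through 2.28 to 3.20 in Low Protein pups, with a log2 fold change of 0.26 (SE 0.142), a limma p = 0.0806, the lowest of the 10, and an exact permutation p = 0.167. It passed without Low Protein pup 1-3 or 2-1 or saline pup 1-3, and with it C1qa and C1qb passed without Low Protein litter 1. Of all genes 1008, 815, 941 and 1104 passed in these fits, in that order, against 980 with all pups. Cx3cr1 ran from 0.207 through 0.244 to 0.255 in saline pups and from 0.154 through 0.203 to 0.239 in Low Protein pups. Both Low Protein litter means were below both saline litter means, with a log2 fold change of -0.22 (SE 0.137) and an exact permutation p = 0.0649.

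Low Protein pups were the most scattered, a description for which no test was run. The SD of the log2 values was widest in this group for 6 of the 10 members, and its median over the members was 0.44, against 0.19 in saline, 0.18 in MAM and 0.25 in Poly I:C pups. Over all genes above the lowest value in every pup, the medians were 0.18, 0.17, 0.15 and 0.20 in the same order, and 28.4% of genes were widest in Low Protein pups. C1qc ran from 2.25 to 8.07 in Low Protein pups, C1qa from 2.42 to 6.68 and Csf1r from 0.585 to 1.495. Pups 1-1 and 2-2 were the high ones, with 7 and 6 members above every saline pup. Pup 1-3 was the low one, with 6 members below every saline pup. Within litter 1 of this group stood both a high and a low pup, so the scatter was present within a litter.

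The same 3 pups stood apart in transcripts of the brain's coverings. Col3a1, a collagen made by fibroblasts of the meninges, was 5.01 in Low Protein pup 1-1, 8.94 in pup 2-2 and 0.990 in pup 1-3, while the 6 saline pups lay between 2.11 and 3.52. Over a list of 7 meninges genes (Col1a1, Col1a2, Col3a1, Dcn, Lum, Foxc1 and Slc6a13), the mean log2 value relative to saline was 0.87, 1.68 and -1.43 in these pups. It lay between -0.71 and 0.55 in the MAM pups, between -0.48 and 0.41 in the Poly I:C pups and between -0.50 and 0.33 in the saline pups. None of the 7 genes passed in any comparison with saline, and their median log2 fold change was 0.01 for Low Protein, -0.03 for MAM and -0.02 for Poly I:C. Mrc1, the mannose receptor of border macrophages, followed the collagen, at 0.168 in pup 1-1, 0.290 in pup 2-2 and 0.0305 in pup 1-3.

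Members differed in how closely they followed this axis. After each group's mean was subtracted, the correlation with the meninges list over 24 pups was 0.92 for Csf1r, 0.91 for C1qc, 0.88 for C1qa, 0.84 for C1qb and 0.81 for Cd68. It was 0.57 for Aif1 and 0.47 for Tmem119, and only 0.26 for P2ry12, 0.17 for Trem2 and 0.06 for Cx3cr1. Without the 3 Low Protein pups named above, the order of the members changed. The values were then 0.79 for Csf1r, 0.73 for C1qc, 0.66 for Cd68, 0.63 for C1qa, 0.57 for Tmem119 and 0.53 for C1qb, and 0.27 for Aif1, 0.18 for P2ry12, 0.12 for Trem2 and 0.06 for Cx3cr1. These correlations describe libraries that share depth and dissection. Trem2 had few reads and P2ry12 slightly more than Csf1r, and the part of read number in these correlations was not tested.

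**Figure D3:**
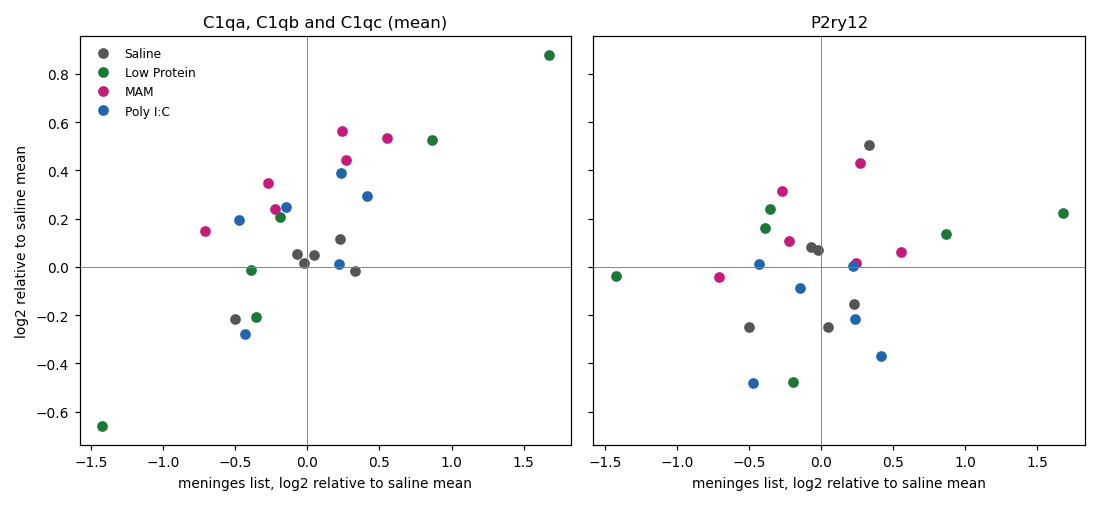
Mean log2 value of C1qa, C1qb and C1qc (left) and log2 value of P2ry12 (right) against the mean log2 value of the 7 meninges genes, all relative to the saline mean, with 1 point for each of 24 pups. The C1q genes rise with the meninges genes and P2ry12 shows no such trend, and the MAM pups lie above the saline pups in C1q at like meninges values.

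The meninges score was also fitted as a covariate, an alternative chosen after the data were seen. Between MAM and saline pups C1qa then differed by 0.40 (SE 0.085), C1qb by 0.34 (SE 0.085) and C1qc by 0.43 (SE 0.092) on the log2 scale, with limma adjusted p-values of 0.195, 0.329 and 0.195. Trem2 differed by 0.39 (SE 0.171). In a fit of saline and MAM pups alone, which leaves out both other groups, the limma adjusted p-values were 0.139 for C1qa, 0.249 for C1qb and 0.284 for C1qc, and Trem2 no longer passed the unadjusted threshold (adjusted p = 0.386). In a fit of litter means C1qa and Trem2 passed that threshold and C1qb and C1qc did not, with a limma adjusted p = 0.722 for each of the 4. With a red blood cell score as the covariate instead, C1qa differed by 0.34 (SE 0.110). Among 8 border macrophage genes measured, 1 was higher in MAM pups, Pf4, a chemokine, with a log2 fold change of 0.75 (SE 0.295) and a limma adjusted p = 0.521. It was higher in Low Protein pups too, by 0.73. The median of the 8 genes was 0.02 in MAM pups, their summed level ran from 2.41 through 3.23 to 4.77 against 2.19 through 2.64 to 3.92 in saline pups, and its part in the C1q difference was not tested.

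Because C1q and Csf1r moved together from pup to pup, their ratio within a pup is described here, a choice made after the values were seen and therefore given with no test. The ratio of C1qa to Csf1r ran from 3.98 through 4.54 to 4.94 in saline pups and from 4.02 through 4.64 to 5.18 in Low Protein pups. In MAM pups it ran from 5.29 through 5.79 to 6.25, above every saline and every Low Protein pup, and in Poly I:C pups from 4.00 through 4.76 to 5.51. The MAM difference from saline was 0.36 on the log2 scale, and for C1qb and C1qc it was 0.30 and 0.38. The C1qb ratio overlapped, from 2.58 to 4.07 in saline and 3.43 to 4.40 in MAM pups. So did the C1qc ratio, from 3.90 to 5.81 in saline and 5.23 to 7.46 in MAM pups. How often the ratio of other genes to Csf1r separates these groups was not counted. The same difference was 0.35 for the ratio of Trem2 to Csf1r, with an SD of 0.37 in saline and 0.39 in MAM pups. For the ratio of P2ry12 to Csf1r it was 0.11, with SDs of 0.22 and 0.23. Low Protein and saline differed in the C1qa ratio by 0.02, and the SD of the log2 ratio in Low Protein pups was 0.15. These ratios do not depend on how a library is scaled.

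**Figure D4:**
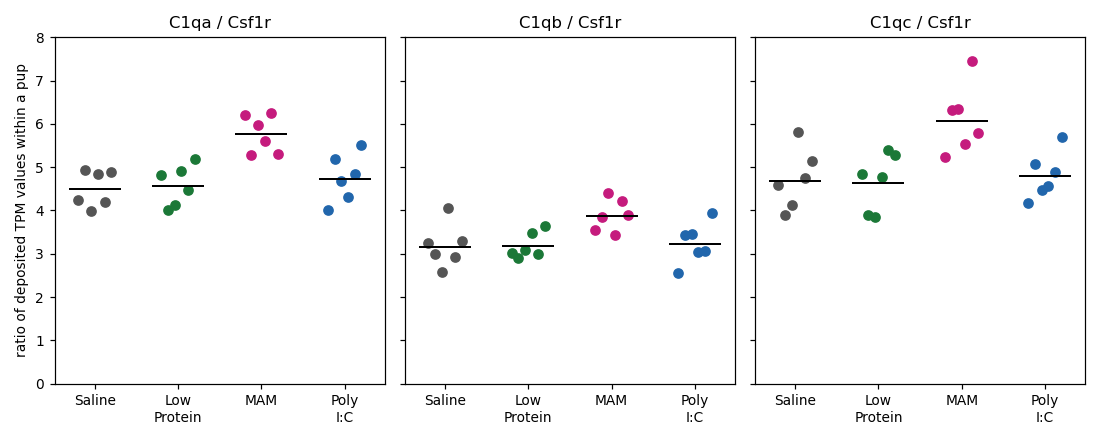
Ratio of the normalised read counts of C1qa, C1qb and C1qc to that of Csf1r within each pup, by maternal treatment. Points are pups and lines geometric means of 6 pups. The MAM pups lie between 5.29 and 6.25 for C1qa, above all saline pups and all Low Protein pups. For C1qb and C1qc the MAM and saline pups overlap.

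Treatments were also compared with one another in the same fit. Between Poly I:C and MAM pups 1 member passed, P2ry12, lower in Poly I:C (17.5% of all genes passed in either direction and 3.75% with lower values in Poly I:C). It ran from 0.648 through 0.708 to 0.899 in MAM pups and from 0.478 through 0.602 to 0.674 in Poly I:C pups, so the groups overlapped only at their edges. The log2 difference was -0.34 (SE 0.134), with limma p = 0.0192, an adjusted p = 0.184 and an exact permutation p = 0.00866. It was lost without MAM pup 1-2, Poly I:C pup 1-2, MAM litter 1 or Poly I:C litter 2. None of the members passed after adjustment, whereas 0.95% of all genes did.

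Between MAM and Low Protein pups 0 of 10 members passed (8.52% of genes unadjusted and 0.0363% adjusted), and between Poly I:C and Low Protein pups 0 of 10 passed as well (4.96% unadjusted and 0.0145% adjusted). C1qc differed by 0.31 (SE 0.210) between MAM and Low Protein pups. Without Low Protein pup 2-2, in which the C1q genes were highest, C1qa, C1qb, C1qc and Cd68 passed between MAM and Low Protein pups. In that fit 1152 of 13737 genes passed. In the test of any difference among the 4 groups, 0 of 10 members passed the unadjusted threshold, against 12.5% of all genes, and 0.152% of genes passed after adjustment. The lowest adjusted p was that of P2ry12 at 0.507 (limma), and the C1q levels of the treated groups were not shown to differ from each other in this fit.

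Pairs of members differed widely in how closely they moved together. C1qb and C1qc correlated across pups, within groups, at 0.97, C1qa and C1qc at 0.92, and Csf1r and C1qa at 0.89. By rank (Spearman) these pairs stood at 0.89, 0.84 and 0.78. Over the 45 pairs of members the median was 0.38 and the lowest -0.29, and the median over all pairs of other genes was 0.09. Each member's correlation with the mean of the other 9 was 0.86 for Csf1r, 0.85 for C1qc, 0.83 for C1qa, 0.79 for C1qb, 0.70 for Cd68, 0.69 for Aif1 and 0.59 for Tmem119. It was 0.32 for Trem2, 0.30 for Cx3cr1 and 0.13 for P2ry12. Among 12643 other genes, those that followed the mean of the members most closely were Colec12 (0.92), Prrx2, Adamts2, Serpinf1, Col3a1 (0.90), Copz2, Lyve1 (0.89), Mrgprf, Cyp1b1 and Pear1. Col3a1 is a fibrillar collagen, Adamts2 processes collagen, and Lyve1 is a hyaluronan receptor of border macrophages and lymphatic vessels. None of these 10 is a transcript by which microglia are usually recognised. Colec12 ran from 0.055 to 0.238 in Low Protein pups and from 0.081 to 0.139 in saline pups. The ranking was not repeated without the Low Protein pups that stood apart, so it may rest largely on them.

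Further genes of macrophages and microglia were read from a list of 24, all measured and tested. In MAM pups 3 were higher at the unadjusted threshold, namely Ctss, the lysosomal protease cathepsin S, by 0.31 (SE 0.0999), Laptm5 by 0.27 (SE 0.1001) and Cyba, a subunit of the phagocyte oxidase, by 0.42 (SE 0.164). In Poly I:C pups 2 were higher, Ctss by 0.36 and Cd53 by 0.60, and in Low Protein pups 1, Ctss by 0.22. None passed after adjustment, and the list's median was 0.16 for MAM, 0.06 for Poly I:C and 0.08 for Low Protein. Of 3 markers of other blood cells, Cd3e of T cells was at the lowest value of the table in 21 of 24 pups, Elane of neutrophil precursors in 17 of 24 and Mpo, a neutrophil peroxidase, in 8 of 24.

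Genes of the pathways around the members were read in the same comparisons. Of 10 genes around Csf1r, Tyrobp was higher and Irf8, a transcription factor of microglia, lower in MAM pups, with log2 fold changes of 0.29 and -0.47, and Cebpb was lower in Poly I:C pups at -0.40. Of 9 measured genes around Trem2, only Tyrobp passed, in MAM pups, and Apoe, a lipid carrier and ligand of Trem2, differed by 0.03 in Poly I:C and 0.00 in Low Protein pups. Of 9 genes around Cx3cr1 and P2ry12, Cx3cl1, the fractalkine that binds Cx3cr1, was lower in Poly I:C pups, from a mean of 3.78 ± 0.458 to 2.84 ± 0.783 (SD, n = 6), a log2 fold change of -0.46. P2ry6, the UDP receptor that drives phagocytosis, was higher by 0.52 in Poly I:C and by 0.38 in MAM pups, and Adam10 and Adam17, which shed fractalkine, were lower in MAM pups at -0.20 and -0.18. P2rx7, an ATP-gated channel, was lower in Low Protein pups at -0.52. Each of these passed the unadjusted threshold alone.

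Complement beyond C1q gave no matching difference in MAM pups, with 0 of 17 measured genes past the threshold and a median of -0.04. In Poly I:C pups Calr, a chaperone that binds C1q, was higher by 0.14 and Cd59, an inhibitor of the terminal pathway, lower at -0.30. Among 15 genes of lysosomes and phagocytosis, Ctsz was higher in MAM by 0.36 and in Poly I:C by 0.32, and Cd47, a signal against phagocytosis, was lower in MAM at -0.28. Of 12 tested genes of developmental microglia states, Gpnmb was higher in MAM by 0.49 and in Poly I:C by 0.38, Spp1 was higher in Poly I:C by 0.59, and Ms4a7 was lower in MAM at values close to the lowest of the table. Of 13 tested inflammatory genes, Ccl3, a chemokine, was higher in MAM pups by 0.93 (SE 0.307), Ptgs2 was lower in MAM, and Il1a was lower in Low Protein. No inflammatory gene passed in Poly I:C pups. Of 5 proliferation genes, Birc5, Cdk1 and Ccnb1 were higher in MAM pups by 0.27, 0.22 and 0.20. None of the genes in these lists passed an adjusted p of 0.05 in any comparison with saline.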

How the data were processed

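Stranded paired-end mRNA libraries were made from the dissected tissue of 24 pups. The authors trimmed reads at phred 30 and a length of 25, aligned them to rn6 with STAR 2.4.1d, and quantified them in Partek against RefSeq transcripts 80. The deposited values are TPM with an offset of 0.0001 that the authors added. The values fall with genomic span, introns included.

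Log2 of the deposited values, with no further pseudocount, was fitted with limma 3.58.1 (R 4.3.3) with group as the only factor over 24 pups and a mean-variance trend, and p-values were adjusted by Benjamini-Hochberg over 13786 genes. Fold changes of low genes depend on the offset. Single genes were permuted exactly, two-sided, over pups. Reads were estimated from genomic spans of the GRCr8 assembly, matched for 97.6% of genes, with multiples up to 8 within a tolerance of 0.05. Python 3.11.15, pandas 2.3.3 and numpy 2.4.6 were used. Named were the 10 members, at most 4 genes of each further list past the unadjusted threshold with the smallest p (otherwise the 2 highest), and the 10 genes most alike. A few others, among them Mrc1, Cd3e, Elane, Mpo and Apoe, were named after their values were seen. Members and lists were chosen with earlier results of these data known. Alternatives covered filters, pseudocounts, scaling, the variance trend, the pups fitted, litters, a replicate block, 2 covariates and leaving out pups or litters. One result of a further list is not reported here. The authors' own comparisons were not used.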

Additional observations from a re-analysis of the deposited data

Results flagged for a closer look

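Of 40 sets of 6 pups (10 genes in 4 groups), 3 held a pup whose gap to its nearest neighbour exceeded Dixon's critical share of the group's range, and chance alone gives about 1 in 20 sets. Tmem119 was 0.0470 in Poly I:C pup 1-3, with a gap of 0.735 of the log2 range. Cx3cr1 was 0.142 in the same pup, with a gap of 0.635. C1qc was 2.94 in saline pup 1-2, the lowest of its group, with a gap of 0.695. Without that saline pup, the count of members past the unadjusted threshold in MAM fell from 3 to 1, and that of all genes from 1303 to 1049.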

How the results depend on the processing

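Over 48 other settings, 45 of them planned, no member passed after adjustment in any comparison, and the lowest adjusted p was 0.108. No called difference turned its direction. Of 1997 repeats of single-member results, 1920 stayed on their side of the unadjusted threshold, 30 lost the call and 47 gained one. Counts of members past the unadjusted threshold ranged, on leaving out 1 pup or litter, from 0 to 3 in Low Protein against saline (0 with all pups), 0 to 4 in MAM against saline (3), 0 to 4 in MAM against Low Protein (0), 0 to 1 in Poly I:C against Low Protein (0), 0 to 2 in Poly I:C against MAM (1) and 0 to 2 among the 4 groups (0), and stayed at 0 in Poly I:C against saline. Counts of all genes moved too. In the same order they ran from 592 to 1239, 488 to 1831, 646 to 1994 and 431 to 1628. For the last 3 they ran from 1510 to 2760, 970 to 2111 and 665 to 2404. With the meninges covariate the counts were 1 in Low Protein, 4 in MAM (C1qc besides the 3), 1 in Poly I:C, 4 in MAM against Low Protein, 1 in Poly I:C against Low Protein, 4 in Poly I:C against MAM and 4 among the 4 groups, and of all genes 1079, 1464, 1379, 1312, 824, 2617 and 1905 passed in the same order. With the red blood cell covariate they were 4 in MAM, 1 in MAM against Low Protein, 4 in Poly I:C against MAM and 1 among the 4 groups, where 1316, 1259, 2636 and 1862 of all genes passed. Only the 5 members above a mean of 1 could be tested under the study's filter, which gave 0 in Poly I:C against MAM and moved the MAM median from 0.19 to 0.33. A pseudocount of 1 brought it to 0.071 and leaving out pups or litters to between 0.11 and 0.31. Scaling by the median of ratios or the upper quartile gave 1 among the 4 groups. The split of all genes passing in Low Protein went from 376 higher and 604 lower to 543 and 512 with the median of ratios and 430 and 640 with the upper quartile, and in Poly I:C against MAM from 1899 and 517 to 1103 and 1108 and to 1139 and 1127. With the replicate number as a block, 4 members passed in MAM (C1qc besides the 3), and 1632 of all genes, against 1303 without the block. Same-numbered pups of other groups correlated between -0.16 and 0.33, and 8 of 24 pups correlated best with their own number. The numbers were therefore not taken to pair the pups. Tmem119 and Trem2 had the fewest estimated reads, with medians of 53.2 and 69.6. The cause of these shifts was not tested.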

Other observations

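Genes of other cell types in the tissue were read in the same comparisons with saline, and none passed after adjustment (limma). Of 10 endothelial and mural genes, Rgs5, a pericyte transcript, was lower in MAM pups with a log2 fold change of -0.28 (SE 0.130), and none passed in the other comparisons with saline. Of 8 neuronal genes, Bcl11b, a transcription factor of deep-layer neurons, was lower in Low Protein pups at -0.29 (SE 0.126), and among the radial glia genes Pax6 was higher in Poly I:C pups at 0.28 (SE 0.111). No red blood cell, meninges or choroid plexus gene passed. All 6 choroid plexus genes were below 0 in MAM pups, with a median log2 fold change of -0.35. Over this list, MAM pups 1-3 and 2-3 stood at -1.63 and -1.21 relative to the saline mean. The other MAM pups lay between -0.11 and 0.49, and the median of the MAM pups was -0.04. S100a8, a transcript of neutrophils and monocytes, was higher in all 3 treatments, with a mean of 0.153 for saline, 0.288 for Low Protein, 0.231 for MAM and 0.337 for Poly I:C. It lay at the lowest value of the table in 2 of the 6 saline pups, so its fold change depends on the offset.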
